A study of Homo sapiens with 32 samples.

Results

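Cytoplasmic poly(A) RNA of HEK293T cells with an IGF2BP3 knockout was set directly against that of HEK293T cells with an IGF2BP2 knockout. The comparison rests on 4 of the 32 libraries of the series, replicates 1 and 2 of each knockout, chosen by their labels. HEK293T is an established human embryonic kidney line. Per the labels, the cells received no other treatment, each gene was targeted with 3 guide RNAs on plasmids that do not integrate, single fluorescent cells were grown into colonies and screened at the protein level, and 1 clone per gene was used. The clone and the targeted gene therefore cannot be told apart in any value below. The 2 IGF2BP3 knockout libraries and the 2 IGF2BP2 knockout libraries come from batches 3 and 4, 1 library of each knockout per batch. Batch 5 consists of 2 more cytoplasmic libraries of the same IGF2BP3 clone and of no other group. Its values are given as a check, and a batch term takes them out of the contrast. The non-targeting control has 4 cytoplasmic libraries, in batches 1 to 4, and its values are given as background; the labels do not say whether the control is a single clone. The cytoplasmic fit also held 2 IGF2BP1 knockout libraries. These and the batch 5 libraries inform its filter, scaling and spread alone.

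The IGF2BP proteins are a family of closely related RNA-binding proteins that reside mainly in the cytoplasm. They bind mRNAs such as IGF2, MYC and ACTB and are known for changing how stable those mRNAs are, where they travel and how well they are translated. They are abundant in embryonic tissue and in many tumours, and IGF2BP2 is in addition known for roles in metabolism.

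The 12 cytoplasmic libraries held 16720159 to 26119480 counts. Values are counts of a gene scaled to the same total in every library (CPM), and differences are log2 fold changes of the IGF2BP3 over the IGF2BP2 knockout from the edgeR fit, with the standard error (SE). The fit also scales libraries by TMM factors, 0.922 to 0.932 in the control and 1.075 to 1.118 in the 4 knockout libraries of batches 3 and 4, which CPM values do not include, so levels in knockouts and control are compared by the fit. The threshold for a call was 0.05 for the p-value adjusted by Benjamini-Hochberg across all tested genes. The biological coefficient of variation was 2.89%, so that small differences passed the test: of 18212 genes tested, 11424 were called, or 62.7%. The calls were split evenly, with 5693 genes higher in the IGF2BP3 knockout (31.3%) and 5731 lower (31.5%). A difference of at least 2-fold was called for 2080 genes (11.4%), 1210 of them higher (6.64%) and 870 lower (4.78%). The values of the 4 libraries did not overlap between the knockouts, in the same direction in both batches, for 14663 genes (80.5%). The labels do not say that replicates were separate cultures, so p-values measure the spread between these libraries, which may be technical. The libraries of batch 5 stood apart from the other IGF2BP3 knockout libraries: their counts differed with a chi-square per degree of freedom of 33.4 to 35.4, against 1.98 between the libraries of batches 3 and 4.

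The targeted genes were checked first. IGF2BP2 (chromosome 3, 185643739 to 185825056, minus strand) stood at 36.9 and 39.1 CPM in the IGF2BP2 knockout and at 77.9 and 82.7 CPM in the IGF2BP3 knockout, beside 78.2 to 83.2 CPM in the control and 68.2 and 72.9 CPM in batch 5. Its mRNA was thus lower in both IGF2BP2 knockout libraries than in every other library named here, with a log2 fold change of 1.04 (SE 0.05, adjusted p = 4.14e-18). In the fit IGF2BP2 was below the control in both knockouts. The log2 fold change was -1.35 in the IGF2BP2 knockout (adjusted p = 4.93e-21) and -0.31 in the IGF2BP3 knockout (adjusted p = 1.11e-06). IGF2BP3 (chromosome 7, 23310209 to 23470467, minus strand) stood at 32.2 and 34.1 CPM in the IGF2BP3 knockout, 24.8 and 26.1 CPM in batch 5, 50.4 and 51.8 CPM in the IGF2BP2 knockout and 63.4 to 69.0 CPM in the control. The log2 fold change was -0.67 (SE 0.06, adjusted p = 2.36e-12). Transcripts of each targeted gene were therefore reduced and not absent, and counts over a whole gene do not show whether its protein is made. IGF2BP1, the third member, was at 248 and 256 CPM in the IGF2BP2 knockout and at 256 and 257 CPM in the IGF2BP3 knockout, below the 330 to 401 CPM of the control in both. No difference between the knockouts was detected for it (log2 fold change -0.02, SE 0.04, adjusted p = 0.657).

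**Figure D1:**
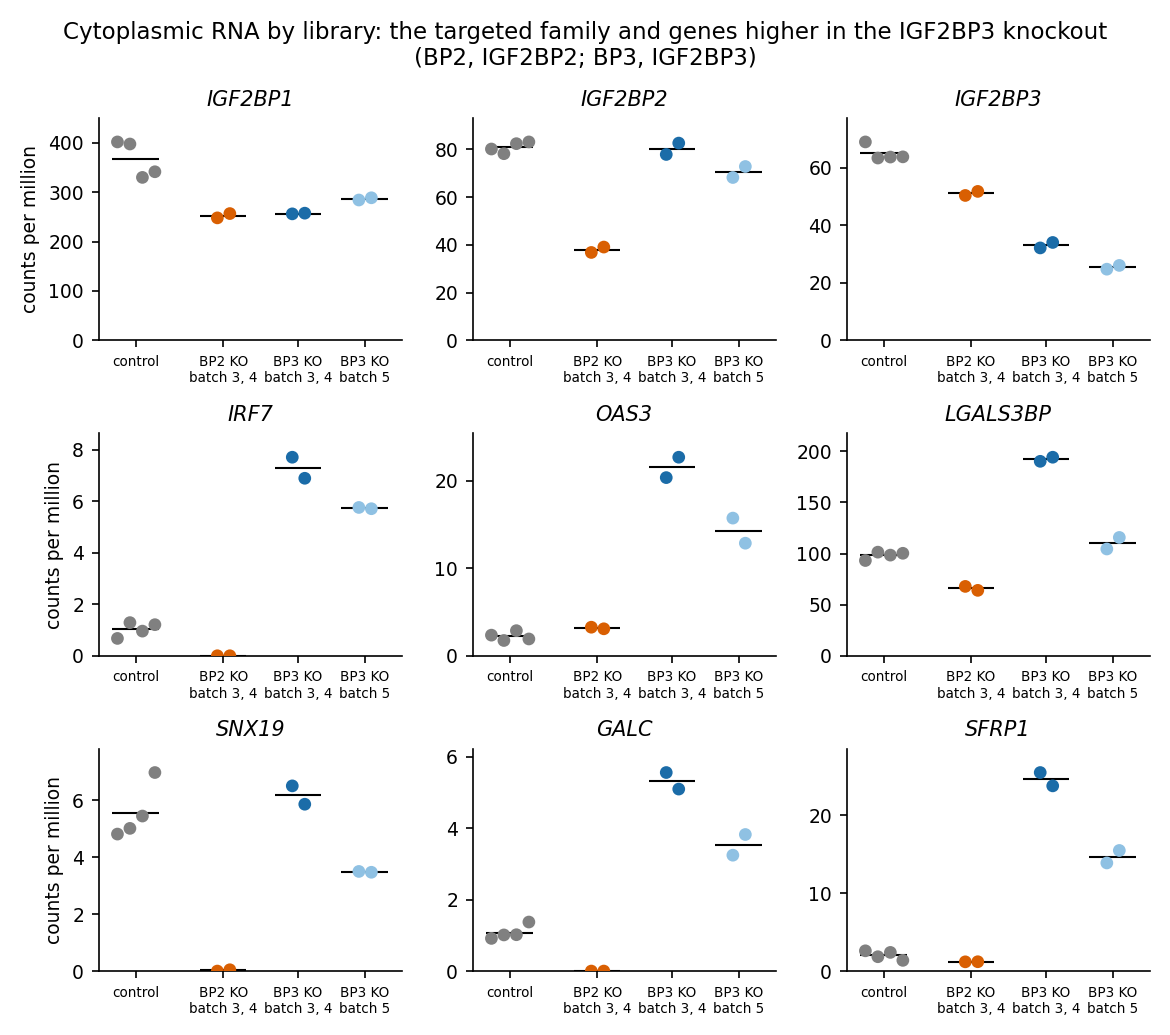
CPM (vertical axis, linear from 0) of 9 genes in the cytoplasmic libraries; each point is 1 library, grey for the control, orange for the IGF2BP2 knockout, dark blue for the IGF2BP3 knockout of batches 3 and 4 and light blue for its batch 5, with group means as lines. IGF2BP2 is lowest in the orange points, IGF2BP3 in the blue ones, and IRF7 and GALC are at 0 in both IGF2BP2 knockout libraries.

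The genes that were higher in the IGF2BP3 knockout by the largest factors fell into 2 patterns when set beside the control. In the first, the transcript was nearly lost from the IGF2BP2 knockout. IRF7, the transcription factor that drives interferon production (chromosome 11, 612553 to 615999), had no count in either IGF2BP2 knockout library, 7.71 and 6.89 CPM in the IGF2BP3 knockout, 5.76 and 5.71 CPM in batch 5 and 0.673 to 1.29 CPM in the control. Against a floor of 3 counts over the group, it was at least 112-fold higher in the IGF2BP3 knockout; the lower end of the exact 95% interval, which counts the error of both groups, was 90.7. GALC, a lysosomal enzyme that removes galactose from ceramide lipids, likewise had no count in the IGF2BP2 knockout and 5.56 and 5.09 CPM in the IGF2BP3 knockout, at least 81.8-fold higher, with a lower end of 66.1. SNX19, a sorting nexin, had 1 count in the IGF2BP2 knockout against 304 in the IGF2BP3 knockout, a ratio of 285 per total count with an exact 95% interval of 50.7 to 11300 that covers counting error only. CTSF, the lysosomal protease cathepsin F, stood at 0.163 and 0.184 CPM in the IGF2BP2 knockout, 30.4 and 26.5 CPM in the IGF2BP3 knockout and 11.4 to 14.8 CPM in the control. NAALAD2, a peptidase, was at 0.204 and 0.506 CPM against 7.97 and 7.24 CPM, with 1.63 to 3.47 CPM in the control. In all 5 genes the IGF2BP2 knockout libraries were the lowest and the control lay above them, for GALC at 0.914 to 1.37 CPM. In the fit 4 of them were also above the control in the IGF2BP3 knockout. Their log2 fold changes were 2.47 for IRF7, 1.87 for GALC, 0.86 for NAALAD2 and 0.69 for CTSF. SNX19 was not called there (-0.28, adjusted p = 0.098).

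In the second pattern the transcript was low in the control and in the IGF2BP2 knockout alike and appeared in the IGF2BP3 knockout. DOK6, an adaptor of receptor tyrosine kinases, stood at 7.75 and 6.05 CPM in the IGF2BP3 knockout and 7.21 and 7.73 CPM in batch 5, and at no more than 0.0921 CPM in the control and the IGF2BP2 knockout. The 338 counts of the IGF2BP3 knockout against 3 give a ratio of 106 (exact 95% interval 35.8 to 514). SFRP1, a secreted antagonist of Wnt ligands, was at 25.5 and 23.7 CPM against 1.18 and 1.197 CPM in the IGF2BP2 knockout and 1.37 to 2.597 CPM in the control (log2 fold change 4.32, SE 0.15, adjusted p = 9.32e-23). IGLON5, a cell adhesion protein of the immunoglobulin superfamily, was at 12.8 and 13.3 CPM against 0.449 and 0.322 CPM. PLD5, a member of the phospholipase D family, was at 6.63 and 6.51 CPM against 0.245 and 0.0460 CPM. B3GALT5-AS1, an antisense RNA, was at 6.03 and 7.12 CPM against 0.0408 and 0.0921 CPM, a ratio of 102 (exact 95% interval 34.5 to 496). Whether reads were counted by strand is not given in the sources used here, so its reads cannot be told from those of B3GALT5. All 10 genes were called higher in total and nuclear RNA as well.

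The genes that were lower by the largest factors showed the mirror image. LXN, a carboxypeptidase inhibitor, stood at 0.0431 and 0.0766 CPM in the IGF2BP3 knockout and at or under 0.0439 CPM in batch 5, against 5.18 and 5.84 CPM in the IGF2BP2 knockout and 2.26 to 3.77 CPM in the control. The IGF2BP2 knockout was higher by a ratio of 90.4 (exact 95% interval 30.6 to 441). TWIST2, a mesenchymal transcription factor, was at 0.0431 and 0.0766 CPM against 5.55 and 5.16 CPM, with no count in batch 5 and 4.06 to 5.01 CPM in the control, a ratio of 88.2 (exact 95% interval 29.8 to 431). ESRP2, a regulator of epithelial splicing, was at 0.258 and 0.345 CPM against 19.8 and 19.5 CPM (log2 fold change -6.03, SE 0.19, adjusted p = 1.39e-23), with 15.5 to 22.4 CPM in the control. MFAP2, a microfibril protein, and PNPLA4, a lipid hydrolase, had log2 fold changes of -5.30 and -5.21 and were also lowest in the IGF2BP3 knockout. These 5 transcripts were nearly lost from the IGF2BP3 knockout and kept in the control. The other 5 were raised in the IGF2BP2 knockout over the control. ADM2, a peptide hormone gene (chromosome 22, 50481556 to 50486440), stood at 40.7 and 41.1 CPM in the IGF2BP2 knockout, 0.517 and 0.421 CPM in the IGF2BP3 knockout and 2.67 to 4.78 CPM in the control (log2 fold change -6.48, SE 0.15, adjusted p = 4.22e-27). KLHDC7B, a kelch domain gene, had no count in the control, 9.67 and 8.19 CPM in the IGF2BP2 knockout and 0.129 and 0.268 CPM in the IGF2BP3 knockout. OSTN, which encodes the secreted peptide osteocrin, was at 31.1 and 29.96 CPM in the IGF2BP2 knockout and between 1.01 and 2.20 CPM in every control and IGF2BP3 knockout library, batch 5 included. GDAP1L1 and KRTAP19-3 followed the same order, with log2 fold changes of -3.85 and -3.75.

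The clearest gene group was that of the integrated stress response. When cells lack amino acids or fold proteins poorly, translation slows while the transcription factor ATF4 is made from its existing mRNA, and ATF4 switches on genes for amino acid synthesis, amino acid import and feedback. Of 27 genes on the list, all tested, 24 were lower in the IGF2BP3 knockout, 12 of them by at least 2-fold, 2 were higher and 1 was not called. Of all genes tested 31.5% were lower and 4.78% lower by at least 2-fold. The median log2 fold change was -0.93, beside a median of -0.0016 over all genes tested, and it was -0.93 in batch 3 and -0.92 in batch 4. Total RNA gave 22 of 27 lower and none higher (median -0.88), where 21.5% of all genes were lower. Nuclear RNA gave 23 of 27 lower and none higher (median -0.999), where 24.1% of all genes were lower. The list was assembled with earlier results of these data known, and its direction here is a description.

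The member that differed most was ADM2, described above, with a log2 fold change of -6.48. Several regulators and feedback genes also differed by large factors. TRIB3, a pseudokinase that restrains ATF4, stood at 239 and 242 CPM in the IGF2BP2 knockout, 48.9 and 49.2 CPM in the IGF2BP3 knockout, 38.1 and 39.0 CPM in batch 5 and 29.6 to 34.3 CPM in the control (log2 fold change -2.34, SE 0.05, adjusted p = 7.17e-29). The IGF2BP2 knockout was thus far above the control, and the IGF2BP3 knockout a little above it. ATF3, a stress-induced transcription factor, was at 262 and 266 CPM against 65.8 and 63.9 CPM, with 34.0 to 36.0 CPM in the control. CEBPG, the partner of ATF4 on DNA, was at 391 and 398 CPM against 113 and 112 CPM, with 109 to 129 CPM in the control, and in the fit the IGF2BP3 knockout was below the control (log2 fold change -0.46, adjusted p = 1.09e-10). NUPR1, a small stress-induced chromatin protein, was at 36.5 and 35.0 CPM against 5.77 and 6.66 CPM. DDIT3, the transcription factor CHOP, differed less, at 47.5 and 47.3 CPM against 33.2 and 34.1 CPM, both above the 6.25 to 9.69 CPM of the control. It was called in cytoplasmic RNA (log2 fold change -0.54, adjusted p = 2.46e-09) and not in total RNA (-0.17, adjusted p = 0.24) or nuclear RNA (-0.15, adjusted p = 0.27). CHAC1, which degrades glutathione, was at 116 and 114 CPM against 68.8 and 74.8 CPM, and at 8.36 and 8.26 CPM in batch 5.

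The genes of amino acid supply named here moved by smaller factors than TRIB3, ATF3, CEBPG and NUPR1, but some by more than DDIT3. PSAT1 and PHGDH, enzymes of serine synthesis, had log2 fold changes of -0.93 (SE 0.03) and -0.52 (SE 0.04). SLC7A5, the importer of large neutral amino acids, stood at 622 and 597 CPM in the IGF2BP2 knockout and 281 and 294 CPM in the IGF2BP3 knockout. Against the control, at 469 to 519 CPM, SLC7A5 was lower in the IGF2BP3 knockout (log2 fold change -1.05, adjusted p = 2.05e-21) and not called in the IGF2BP2 knockout (0.08, adjusted p = 0.0648). ASNS, asparagine synthetase, was at 6.37 and 5.98 CPM against 2.63 and 2.99 CPM. The 2 members that were higher differed little: ATF4 itself had a log2 fold change of 0.14 (SE 0.03, adjusted p = 0.000451) and SHMT2, a mitochondrial enzyme of serine use, 0.09 (SE 0.04, adjusted p = 0.0325). PCK2, which makes phosphoenolpyruvate in mitochondria, was the member not called, with 144 and 140 CPM against 147 and 142 CPM. In this fit the mRNA of ATF4 thus differed slightly, and in the other direction from most genes it is known to regulate. That direction was not upheld elsewhere. No list member was called higher in total or nuclear RNA, with batch 5 in place of batches 3 and 4, or without the replicate block.

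Fitted against the control in the same model, the list had a median of 0.73 in the IGF2BP2 knockout and of -0.12 in the IGF2BP3 knockout. Both use the same control libraries. Over all genes with at least 5 CPM in the higher knockout the medians were -0.099 and -0.10, so the -0.12 lies near that of all genes. The batch 5 libraries of the IGF2BP3 knockout were lower still, with a list median of -2.06 against the IGF2BP2 knockout and no batch term. PCK2 stood at 26.7 and 26.8 CPM there, CHAC1 was lowest there, and the control itself shifted between batches, with PCK2 at 35.7 and 40.2 CPM in batches 1 and 2 and at 83.7 and 91.5 CPM in batches 3 and 4. The part of culture conditions in these genes was not tested.

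**Figure D2:**
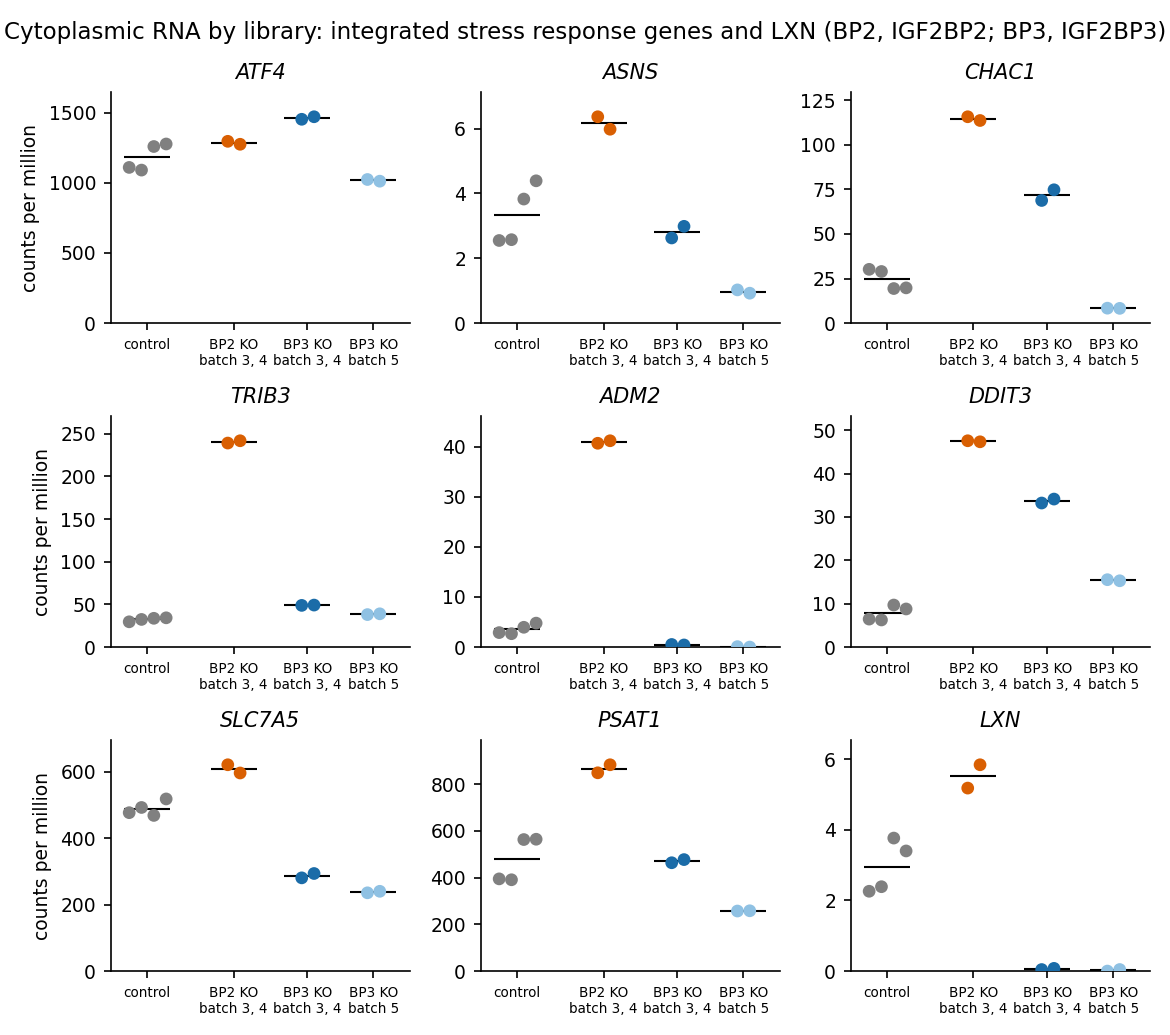
CPM (vertical axis, linear from 0) of 8 integrated stress response genes and LXN in the cytoplasmic libraries, 1 point per library, with group means as lines. ADM2 and TRIB3 are highest in the IGF2BP2 knockout (orange), ATF4 is not, and CHAC1 is at 8.26 to 8.36 CPM in batch 5 of the IGF2BP3 knockout (light blue).

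ATF4 acts with C/EBP proteins on a composite element, TGATGNAA. The element was searched on both strands of the 250 bases before each RefSeq start (GRCh38.p14) and was present in 3.14% of 35116 promoters. Of the 22 stress response genes matched by symbol, 4 held it, and all 4 were lower in the IGF2BP3 knockout; 20 of the 22 matched genes were lower. They are shown because they pair a known type of ATF4 site with the difference measured, 30 bases each, 5′ to 3′ on the strand of the gene, with the element in capitals; a match is a description and does not show binding.
ASNS, chr7:97872458-97872487, minus strand, 68 bases before the start: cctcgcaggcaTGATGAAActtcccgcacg
ATF3, chr1:212565205-212565234, plus strand, 191 bases before a start: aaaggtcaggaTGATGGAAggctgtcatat
CEBPG, chr19:33374060-33374089, plus strand, 42 bases before the start: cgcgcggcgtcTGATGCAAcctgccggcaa
CHAC1, chr15:40953251-40953280, plus strand, the element on the other strand, 209 bases before the start: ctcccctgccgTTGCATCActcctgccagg

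Interferon-stimulated genes were mostly higher in the IGF2BP3 knockout, at low levels of expression. Of 64 genes on the list 46 were tested; 27 were higher, 16 of them by at least 2-fold, 9 were lower, none by 2-fold, and 10 were not called. Of all genes 31.3% were higher and 6.64% higher by at least 2-fold. The list median was 0.32, and 0.22 with batch 5 in place of batches 3 and 4, where 17 were called higher and 10 lower. OAS3, a sensor of double-stranded RNA, stood at 20.4 and 22.7 CPM in the IGF2BP3 knockout, 15.7 and 12.9 CPM in batch 5, 3.27 and 3.08 CPM in the IGF2BP2 knockout and 1.75 to 2.87 CPM in the control (log2 fold change 2.71, SE 0.13, adjusted p = 1.41e-18). LGALS3BP, a secreted glycoprotein and the most abundant of the 16, was at 190 and 194 CPM against 67.9 and 64.0 CPM, with 93.2 to 101 CPM in the control (log2 fold change 1.498, SE 0.05). IFITM2 and IFITM3, membrane proteins that hinder virus entry and are both encoded on chromosome 11, had log2 fold changes of 1.45 (SE 0.07) and 1.56 (SE 0.11). UBE2L6, the conjugating enzyme for ISG15, was at 26.7 and 29.2 CPM against 9.18 and 8.70 CPM, and IFI35 at 10.3 and 11.1 CPM against 2.53 and 2.81 CPM. ISG15 itself, a ubiquitin-like protein, went the other way, at 4.56 and 3.98 CPM against 7.63 and 6.40 CPM (log2 fold change -0.76, SE 0.15, adjusted p = 5.97e-05). EIF2AK2, the double-stranded RNA kinase PKR, was also lower (-0.37, SE 0.05). The list therefore did not move as a block. Against the control its median was 0.05 in the IGF2BP2 knockout and 0.89 in the IGF2BP3 knockout, with the control libraries shared.

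The interferon-stimulated response element, here GAAA and GAAA with any 2 bases between them, searched in the same windows, was present in 3.02% of all promoters and in 22 of the 34 list members matched by symbol. Of the 18 matched members that were higher, 11 held it, and of the 8 that were lower, 6 did. Examples are shown from genes that were higher and from ISG15, which was lower, with the element in capitals.
OAS3, chr12:112938321-112938350, plus strand, 143 bases before the start: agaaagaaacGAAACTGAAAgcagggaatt
LGALS3BP, chr17:78979962-78979991, minus strand, 58 bases before the start: gtggtttctgGAAATCGAAAgtagactctt
IFITM3, chr11:320876-320905, minus strand, 35 bases before the start: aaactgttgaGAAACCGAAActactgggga
IFIT1, chr10:89392497-89392526, plus strand, the element on the other strand, 116 bases before the start: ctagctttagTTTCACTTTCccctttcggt
ISG15, chr1:1013380-1013409, plus strand, 107 bases before the start: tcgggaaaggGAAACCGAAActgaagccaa
The element was thus found on both sides of the comparison.

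Genes of innate sensing and signalling gave 20 higher and 8 lower of 36 tested, with a median of 0.24, where 31.3% of all genes were higher and 31.5% lower. IKBKE, the kinase that activates IRF3 and IRF7, was at 10.2 and 9.15 CPM in the IGF2BP3 knockout, 0.980 and 1.15 CPM in the IGF2BP2 knockout and 7.06 to 7.95 CPM in the control (log2 fold change 3.13, SE 0.18, adjusted p = 8.73e-17). The IGF2BP2 knockout libraries were thus the lowest. Both chains of the type I interferon receptor were higher, IFNAR2 with a log2 fold change of 1.10 (SE 0.09) and IFNAR1 with 0.64 (SE 0.05); both lie on chromosome 21. NLRX1, a mitochondrial sensor, had 1.03 (SE 0.07) and the NF-kB subunit RELA 0.76 (SE 0.05). In MHC class I antigen presentation 13 of 21 tested genes were higher and 3 lower (median 0.29), beside the same shares of all genes, but with batch 5 in place of batches 3 and 4 the median was 0.01. ERAP2, which trims peptides, was at 11.8 and 9.53 CPM against 2.98 and 2.35 CPM, and PSME1, a proteasome activator subunit, at 108 and 104 CPM against 45.6 and 48.5 CPM. B2M, the light chain, had a log2 fold change of 0.43 (SE 0.04), whereas the peptide transporter subunit TAP2 had -0.56 (SE 0.07).

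Cholesterol genes were higher in the IGF2BP3 knockout. This pathway builds sterols from acetyl-CoA and takes up lipoprotein under the control of the SREBF2 transcription factor. Of 25 genes, all tested, 20 were higher, 1 was lower and 4 were not called, beside 31.3% higher and 31.5% lower of all genes, with a median of 0.41, and of 1.02 with batch 5 in place of batches 3 and 4. TM7SF2, a sterol reductase, stood at 70.3 and 66.8 CPM in the IGF2BP3 knockout, 40.5 and 44.7 CPM in batch 5, 19.4 and 17.7 CPM in the IGF2BP2 knockout and 11.96 to 13.4 CPM in the control (log2 fold change 1.84, SE 0.07, adjusted p = 8.29e-22). SC5D, a sterol desaturase, was at 156 and 149 CPM against 56.6 and 56.4 CPM, with 52.4 to 58.6 CPM in the control. LSS, which closes the sterol ring, was at 124 and 122 CPM against 48.7 and 50.5 CPM, and the control lay between them at 68.4 to 86.2 CPM. INSIG1, which holds SREBF proteins back when sterols are plentiful, had a log2 fold change of 1.01 (SE 0.05). SREBF2 was the member that was lower (-0.30, SE 0.04, adjusted p = 1.9e-07). The sterol regulatory element, searched in the same windows, was present in 0.883% of all promoters and in 1 of 18 matched members, SREBF2, and in none of the 13 matched members that were higher. Against the control the list median was -0.50 in the IGF2BP2 knockout and -0.15 in the IGF2BP3 knockout. Over all genes with at least 5 CPM in the higher knockout it was -0.099 and -0.10.

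All 22 tested genes of glycolysis were called, where 62.7% of all genes were; 16 were higher, where 31.3% of all genes were, and 6 lower, with a median of 0.43, and of 0.72 with batch 5. PKM, pyruvate kinase, was at 1276 and 1304 CPM in the IGF2BP3 knockout, 770 and 750 CPM in the IGF2BP2 knockout and 1387 to 1537 CPM in the control (log2 fold change 0.72, SE 0.04, adjusted p = 5.31e-18). PFKL, a subunit of phosphofructokinase, was at 186 and 188 CPM against 90.7 and 89.4 CPM, and PFKFB4, which makes its activator, had a log2 fold change of 1.10 (SE 0.09). Other members went the other way. HK2, a hexokinase at the entry of the pathway, was at 18.9 and 18.4 CPM against 40.6 and 40.5 CPM, with 72.1 to 89.0 CPM in the control; in batch 5 it stood at 34.3 and 36.1 CPM and was not called against the IGF2BP2 knockout (log2 fold change -0.07, adjusted p = 0.53). SLC2A1, the glucose transporter, had -0.57 (SE 0.07) and ENO1, enolase, -0.35 (SE 0.03). Against the shared control libraries the list median was -0.98 in the IGF2BP2 knockout and -0.72 in the IGF2BP3 knockout.

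**Figure D3:**
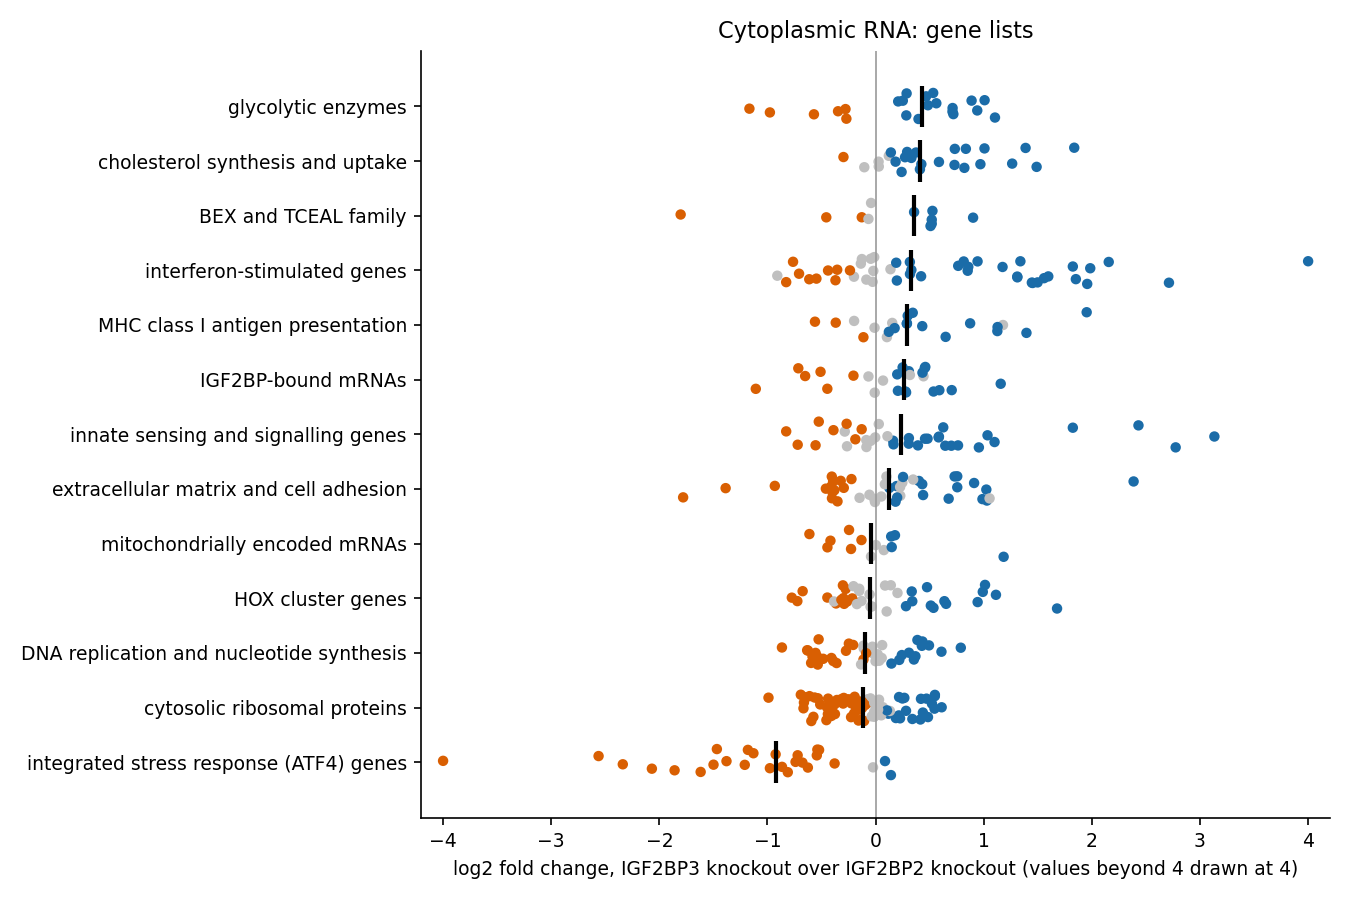
Log2 fold change of the IGF2BP3 over the IGF2BP2 knockout (horizontal axis) for each tested gene of 13 lists, in cytoplasmic RNA; blue points were called higher, orange points lower, grey points not called, and black bars are list medians; values beyond 4 are drawn at 4. The integrated stress response list lies to the left, with a median of -0.93, and the glycolysis and cholesterol lists to the right, with medians of 0.43 and 0.41.

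Of 24 tested mRNAs described in the literature as bound by IGF2BP proteins, 13 were higher, 6 lower and 5 not called, with a median of 0.26, where 31.3% of all genes were higher and 31.5% lower. MYC was at 77.3 and 75.1 CPM in the IGF2BP3 knockout, 87.6 and 90.5 CPM in batch 5, 159 and 159 CPM in the IGF2BP2 knockout and 218 to 286 CPM in the control (log2 fold change -1.11, SE 0.04, adjusted p = 6.72e-21). It was therefore below the control in both knockouts and lowest in the IGF2BP3 knockout. CCND2, a cyclin of the G1 phase, was at 70.1 and 77.0 CPM against 116 and 118 CPM, with 66.3 to 78.6 CPM in the control; in the fit CCND2 was below the control in the IGF2BP3 knockout (log2 fold change -0.34, adjusted p = 1.72e-06). IGF2 (chromosome 11, 2129112 to 2149603) was at 26.5 and 27.6 CPM against 11.7 and 11.8 CPM, above the 2.31 to 3.31 CPM of the control in both (log2 fold change 1.16, SE 0.08, adjusted p = 4.83e-14). In batch 5 IGF2 stood at 8.32 and 9.66 CPM, and the fold change against the IGF2BP2 knockout turned to -0.26 (adjusted p = 0.121). ACTB, the mRNA by which the family was named zipcode-binding proteins, had a log2 fold change of 0.59 (SE 0.04) and was below the control in both knockouts.

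The lists of this paragraph stand beside 31.3% of all genes higher and 31.5% lower, and the counts of matrix and HOX genes lie near those shares. Genes of the extracellular matrix and adhesion gave 17 higher and 14 lower of 43 tested, and their median of 0.13 turned to -0.25 with batch 5. SPARC, a matrix glycoprotein, was at 62.4 and 62.9 CPM in the IGF2BP3 knockout, 40.5 and 40.6 CPM in batch 5, 12.4 and 10.7 CPM in the IGF2BP2 knockout and 2.50 to 3.90 CPM in the control (log2 fold change 2.39, SE 0.07). ITGA4, an integrin chain, was at 7.02 and 6.47 CPM against 17.2 and 16.9 CPM. COL1A1, a fibrillar collagen chain, had a log2 fold change of 1.03 (SE 0.08), but batch 5 stood at 20.5 and 19.1 CPM beside 19.7 and 17.7 CPM in the IGF2BP2 knockout and did not pass the test (log2 fold change 0.21, adjusted p = 0.101). Cytosolic ribosomal protein genes gave 20 higher and 43 lower of 79, none by 2-fold, with a median of -0.12 that turned to 0.07 with batch 5; RPS2 was the extreme, at 2312 and 2408 CPM against 4677 and 4416 CPM (log2 fold change -0.99, SE 0.04). DNA replication genes gave 12 higher and 18 lower of 40 (median -0.10, and 0.02 with batch 5), led by ORC6 (-0.87, SE 0.04) and FEN1 (0.79, SE 0.04). HOX genes gave 13 higher and 12 lower of 38; HOXA13, the most posterior gene of its cluster, was at 60.5 and 58.7 CPM against 18.5 and 17.6 CPM, with 33.6 to 39.9 CPM in the control. The BEX and TCEAL family of the X chromosome gave 6 higher and 3 lower of 11, with BEX5 (0.90, SE 0.11) and BEX3 (0.53, SE 0.04) among the higher.

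Among abundant genes that differed by at least 2-fold, CFL1, which severs actin filaments, was at 1010 and 1042 CPM in the IGF2BP3 knockout against 494 and 467 CPM. SOD1, the cytosolic superoxide dismutase, was at 478 and 457 CPM against 195 and 195 CPM. CCT8, a chaperonin subunit, and ACLY, which makes acetyl-CoA for lipid synthesis, had log2 fold changes of 1.01 (SE 0.04) and 1.06 (SE 0.04). These 4 were all below the control in the IGF2BP2 knockout, and they lie on chromosomes 11, 17 and 21. On the lower side TSC22D3, a glucocorticoid-induced leucine zipper gene, was at 787 and 785 CPM against 1976 and 1980 CPM, with 295 to 327 CPM in the control. JUN, a subunit of AP-1, was at 215 and 212 CPM against 605 and 599 CPM, with 197 to 220 CPM in the control; in the fit JUN was below the control in the IGF2BP3 knockout (log2 fold change -0.22, adjusted p = 4.16e-05). YARS1, the tyrosyl-tRNA synthetase, had a log2 fold change of -1.09 (SE 0.04).

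The differences followed chromosomes. Over 12165 genes with at least 5 CPM in the higher knockout, the median log2 fold change was -0.01, but it was 0.61 on chromosome 11, where 93.7% of 685 genes were above 0, and 0.67 on chromosome 21, where 92.3% of 130 genes were. Chromosome 17 had a median of 0.36 (83.1% of 765 genes above 0). On chromosome 2 the median was -0.43, with 14.0% of 808 genes above 0, on chromosome 19 it was -0.33 (21.3% of 813) and on chromosome 16 it was -0.30 (21.5% of 549). The medians of the other chromosomes lay between -0.21, on chromosome 6, and 0.19, on chromosome X. These 6 chromosomes were singled out after their values were seen, and genes of a chromosome are not independent replicates.

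The shift ran along the whole of these chromosomes. In windows of 10 Mb with at least 10 genes, the medians on chromosome 11 lay between 0.34 and 0.79 in all 14 windows, on chromosome 21 between 0.36 and 0.73 in 4, and on chromosome 17 between 0.12 and 0.45 in 9. On chromosome 2 they lay between -0.77 and -0.14 in 25 windows, on chromosome 16 between -0.43 and -0.23 in 9 and on chromosome 19 between -0.84 and -0.23 in 6. Other chromosomes changed along their length: the last window of chromosome 3, from 190 Mb, had a median of 0.63 after -0.33 in the window before it, which holds IGF2BP2, and the windows of chromosome X from 110 Mb on had medians of 0.39 to 0.53 against -0.29 to 0.29 before. The same chromosomes stood out in separate libraries: the medians of chromosomes 11, 21 and 2 were 0.63, 0.67 and -0.42 in total RNA and 0.63, 0.63 and -0.44 in nuclear RNA. With batch 5 in place of batches 3 and 4 they were 0.69, 0.72 and -0.30.

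Fitted against the control, chromosome 11 had a median of -0.53 in the IGF2BP2 knockout and 0.10 in the IGF2BP3 knockout, and chromosome 2 had -0.02 and -0.39. The medians over all chromosomes were -0.099 and -0.10. The low side of chromosome 11 was thus the IGF2BP2 knockout and that of chromosome 2 the IGF2BP3 knockout, with control libraries shared. Expression values do not give the number of copies of a chromosome, and DNA was not analysed here. The 6 chromosomes held 3793 of 11112 called genes with a position and 5310 of 17479 tested. Of the calls of at least 2-fold they held 774 of 1958. Taking each gene's chromosome median off left the list medians at -0.86 for the integrated stress response, 0.42 for cholesterol, 0.35 for interferon-stimulated genes and 0.33 for MHC class I, while it lowered those of glycolysis to 0.24, innate sensing to 0.13 and IGF2BP-bound mRNAs to 0.09. Of the genes named here, IRF7, SNX19, CTSF, NAALAD2, IGF2, IFITM2, IFITM3, UBE2L6, RELA, TM7SF2, SC5D, NLRX1, FEN1, WT1 and CFL1 lie on chromosome 11, LGALS3BP, IFI35, COL1A1 and ACLY on chromosome 17, and B3GALT5-AS1, IFNAR1, IFNAR2, LSS, SOD1, PFKL and CCT8 on chromosome 21, all higher. HK2, ITGA4, EIF2AK2 and TWIST2 on chromosome 2, SLC7A5, NUPR1, ESRP2, RPS2 and ORC6 on chromosome 16 and CEBPG on chromosome 19 were lower. These differences have the sign of their chromosome, whereas KRTAP19-3 on chromosome 21 and IGLON5 on chromosome 19 have the opposite sign. For IGF2BP1 on chromosome 17 no difference was detected. The genes under other observations are not in this listing.

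**Figure D4:**
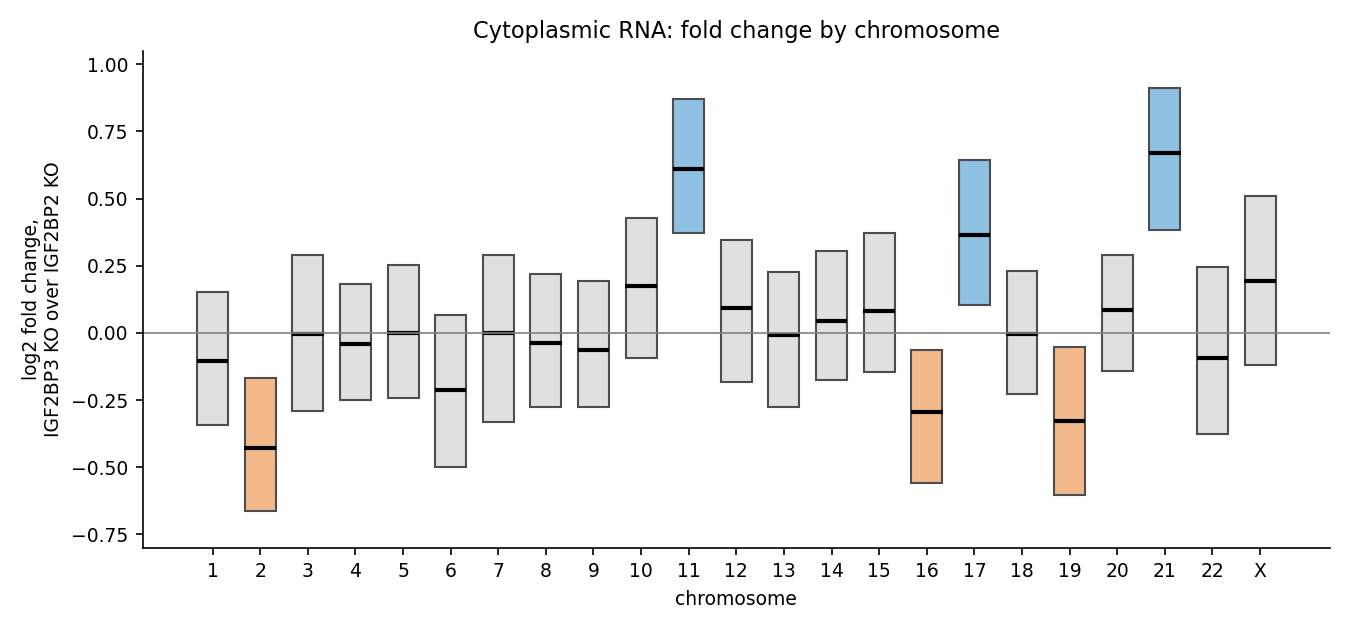
Log2 fold change of the IGF2BP3 over the IGF2BP2 knockout in cytoplasmic RNA (vertical axis) by chromosome (horizontal axis), for genes with at least 5 CPM in the higher knockout; boxes span the middle 50% of genes and black bars are medians. Chromosomes 11, 17 and 21 (blue) lie above 0 and chromosomes 2, 16 and 19 (orange) below.

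The comparison was repeated in separate libraries of total and nuclear RNA of the same clones and batches. Total RNA gave 8118 calls of 18745 genes (43.3%), a count that was 3935 and 3848 without IGF2BP2 knockout replicates 1 and 2 and 4304 and 4272 without IGF2BP3 knockout replicates 1 and 2, and nuclear RNA 9031 of 18732 (48.2%). At 2-fold or more, 6.16% of genes were higher and 4.39% lower in total RNA, and 7.22% and 4.23% in nuclear RNA; groups did not overlap for 78% and 76% of genes. Of the 11313 cytoplasmic calls also tested in total RNA, 7403 were called with the same sign there, 65.4% of the cytoplasmic and 93.1% of the total RNA calls; for nuclear RNA it was 7648, 67.6% and 86.3%. Among cytoplasmic calls of at least 2-fold, 1624 of 1973 (82.3%) were called with the same sign in total RNA and 1587 of 1969 (80.6%) in nuclear RNA, and none was called with the opposite sign. ADM2 had log2 fold changes of -6.48, -6.53 and -6.12 in cytoplasmic, total and nuclear RNA, TRIB3 of -2.34, -2.31 and -2.42, and OAS3 of 2.71, 3.19 and 2.78.

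Whether the difference between the knockouts itself differed between cytoplasm and nucleus was tested as an interaction in one fit of both fractions. It was called for 314 of 19310 genes (1.63%), 139 of them with a cytoplasmic difference above the nuclear one (0.720%) and 175 below (0.906%). That split depends on the scaling: with upper quartile normalization 24% of the calls lay above and with relative log expression 35.1%, in place of 44.3%. The count depends on single libraries: it was 89 without the cytoplasmic library of IGF2BP2 knockout replicate 1, 59 and 41 without those of IGF2BP3 knockout replicates 1 and 2, 94 without the nuclear library of IGF2BP2 knockout replicate 1, and 84 and 41 without those of IGF2BP3 knockout replicates 1 and 2. Mitochondrially encoded mRNAs, which code for subunits of the respiratory chain and the ATP synthase, made up a visible group. In cytoplasmic RNA 4 of the 13 were higher in the IGF2BP3 knockout and 6 lower (median -0.04). In nuclear RNA all 13 were higher, 9 by at least 2-fold, with a median of 1.06; of all genes 24.1% were higher in nuclear RNA and 7.22% by at least 2-fold. Total RNA gave 7 higher, none lower and a median of 0.33. The interaction was called below 0 for all 13, with a median of -1.13, beside 0.906% of all genes. With batch 5 in place of batches 3 and 4 the cytoplasmic median was 0.15.

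MT-CO1, a core subunit of cytochrome oxidase, had a log2 fold change of -0.42 (SE 0.04) in cytoplasmic and 0.90 (adjusted p = 1.75e-06) in nuclear RNA. The interaction was -1.30 (adjusted p = 1.11e-10). MT-CYB, of complex III, and MT-ND5 and MT-ND1, of complex I, had interactions of -1.29, -1.16 and -1.11. Against batch 5, MT-ND5 turned to 0.11 (adjusted p = 0.32). MT-ND6, the mRNA that is read from the other strand of the mitochondrial genome, was higher in each kind of RNA, with log2 fold changes of 1.18, 2.07 and 2.01 in cytoplasmic, total and nuclear RNA; its cytoplasmic values were 118 and 85.3 CPM against 42.7 and 43.4 CPM. Its interaction of -0.78 was -0.06 (adjusted p = 0.989) without the cytoplasmic library of IGF2BP3 knockout replicate 2. MT-TL1, a mitochondrial tRNA, and MTCO1P12, a nuclear copy of MT-CO1 that can share its reads, were opposite in sign between the fractions, with interactions of -1.42 and -1.71. Of all genes called in the interaction, 56 were called with opposite signs in cytoplasm and nucleus. The whole share of mitochondrial mRNA moved in the nuclear libraries: it was 1.59% and 1.68% of counts in the IGF2BP2 knockout, 3.21% and 3.41% in the IGF2BP3 knockout and 1.69% to 2.01% in the control, while in cytoplasmic libraries it was 8.65% and 8.18% against 7.42% and 7.83%. The part of unequal separation of the fractions in this result was not tested.

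**Figure D5:**
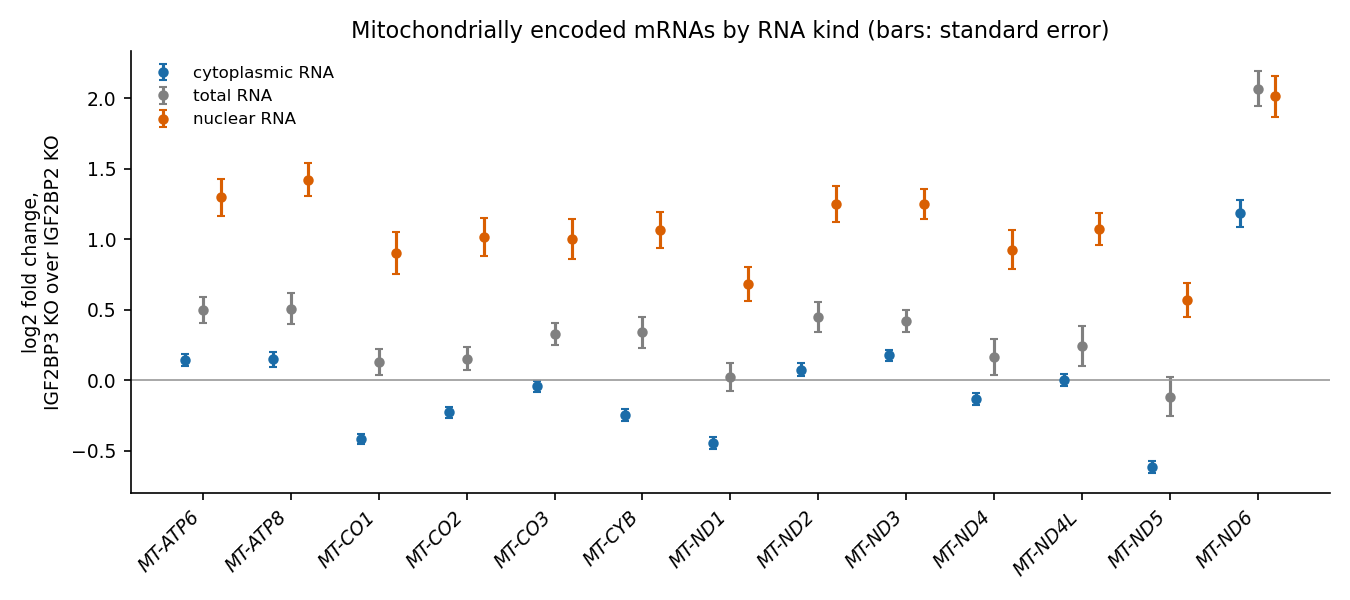
Log2 fold change of the IGF2BP3 over the IGF2BP2 knockout (vertical axis) of the 13 mitochondrially encoded mRNAs (horizontal axis) in cytoplasmic (blue), total (grey) and nuclear RNA (orange), with the SE as bars. All 13 orange points lie above 0, whereas the blue points, MT-ND6 apart, lie between -0.61 and 0.18.

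The line's own markers were checked beside these results. Of the kidney and HEK293 markers 15 were tested, 5 higher and 8 lower, where 31.3% of all genes were higher and 31.5% lower. Among the higher, WT1, a transcription factor of kidney development, was at 7.54 and 7.27 CPM against 4.86 and 4.37 CPM, and KRT18, a keratin, at 101.5 and 100.3 CPM against 86.0 and 86.9 CPM. Among the lower, VIM stood at 522 and 528 CPM against 738 and 735 CPM, and NEFM, a neurofilament gene that this line expresses, at 37.3 and 35.8 CPM against 210 and 205 CPM, with 242 to 256 CPM in the control. EYA1, a transcriptional coactivator of kidney development, was at 4.26 and 5.28 CPM against 29.8 and 28.6 CPM. Of 10 blood markers 4 (GATA1, HBB, CD3E and MPO) had no count in the 4 libraries and 9 were under 1 CPM. The fibroblast marker THY1 had no count, but ACTA2, which encodes smooth muscle actin, was at 9.602 and 8.997 CPM against 16.5 and 15.1 CPM and PDGFRA, a growth factor receptor, at 3.19 and 2.64 CPM against 1.96 and 1.84 CPM, with batch 5 at 3.46 and 3.73 CPM for ACTA2 and 1.07 and 1.54 CPM for PDGFRA. The summed level of the nuclear-retained RNAs was 1421 to 1454 CPM in the IGF2BP3 knockout, 1645 to 1680 CPM in the IGF2BP2 knockout, 714 to 765 CPM in batch 5 and 539 to 644 CPM in the control. In these bulk samples fewer cells expressing a gene and less RNA per cell cannot be told apart.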

How the data were processed

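Poly(A) RNA of cytoplasmic, nuclear and total extracts of HEK293T cells was sequenced from stranded libraries on an Illumina instrument, per the labels' protocols. The authors deposited counts per gene, with FPKM values beside them; per the submitters' processing notes STAR, featureCounts and DESeq2 1.44.0 were used, with GRCh38. The counts were analysed as deposited. The deposited FPKM values entered only an alternative, limma 3.58.1 on log2(FPKM + 1) and log2(FPKM + 0.1). Of 62703 gene identifiers, 58279 were matched by Ensembl ID to GENCODE 29 for positions (GRCh38), and 20403 carried no symbol.

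Genes that passed edgeR's default expression filter by genotype were scaled by TMM and fitted with edgeR 4.0.16's quasi-likelihood test (R 4.3.3) on all libraries of a fraction, with genotype and batch as terms, and adjusted by Benjamini-Hochberg. The cytoplasmic fit had 12 libraries and 4 residual degrees of freedom. The labels state the batch, and batch pairs the replicates; the correlation of deviations between paired libraries of the knockouts was -0.0102. The interaction fit held the cytoplasmic and nuclear libraries of batches 1 to 4. Batch 5 was compared with the IGF2BP2 knockout without a batch term. CPM values are counts scaled to the same library total, and 3 counts correspond to 0.115 to 0.179 CPM in the cytoplasmic libraries. Intervals of count ratios are exact and cover counting error only. The total RNA library of IGF2BP1 knockout replicate 2 held the same values as the nuclear library of IGF2BP1 knockout replicate 1 and served for the spread alone. The code was tested on simulated data. Some list members are not reported here.

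Genes were named by rule: the IGF2BP genes; the 10 called genes with the largest difference in each direction among those with at least 5 CPM in the higher knockout, equal direction in both batches and no overlap; the 4 most abundant genes of at least 2-fold in each direction; up to 3 per list; and up to 3 with opposite signs in cytoplasm and nucleus. Others named from lists and markers were chosen after their values were seen. Members and lists were chosen with earlier results of these data known. Promoter windows are from RefSeq (GRCh38.p14). The alternatives tried were other scaling, filters, DESeq2 1.42.0, no replicate block, other sets of libraries, FPKM and leaving out each control, IGF2BP2 knockout and IGF2BP3 knockout library.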

Additional observations from a re-analysis of the deposited data

Results flagged for a closer look

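In 244 groups of 4 cytoplasmic libraries checked, single libraries stood away from the other 3 for 8 of the genes named. The cut-off sets about 1 in 20 groups of 4 independent, alike libraries apart by chance. The control and the IGF2BP3 knockout each mix batches that differ, so that rate does not apply and the count cannot be compared with chance. IGF2BP3 was at 69.0 CPM in control replicate 1, above 63.4 CPM, the lowest of the control. DOK6 was at 0.0919 CPM (2 counts) in control replicate 2 and KRTAP19-3 at 0.0460 CPM (1 count) in the same library. The other control libraries had no count, and both values lie under the floor of 3 counts. CCT8 was at 590.5 CPM in control replicate 3, where the lowest control library had 554 CPM, and COL1A1 at 17.4 CPM in that library, where the highest had 21.7 CPM. In the IGF2BP3 knockout IFNAR2 was at 17.6 CPM and MTCO1P12 at 22.97 CPM in replicate 4, a library of batch 5, and SALL1 was at 33.9 CPM there, with 30.3 CPM in the lowest library.

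The difference between the knockouts differed between cytoplasm and nucleus for 314 genes by the edgeR interaction test. The cytoplasmic minus nuclear difference was -0.78 for MT-ND6 (adjusted p = 6.88e-05), -1.16 for MT-ND5 (5.51e-11) and -1.11 for MT-ND1 (3.39e-10). It was -1.71 for MTCO1P12 (3.86e-17), -1.42 for MT-TL1 (3.06e-13) and -1.29 for MT-CYB (9.34e-13). MT-CO1 had -1.30 (1.11e-10) and MT-ATP8 -1.26 (1.9e-13). ASNS, the asparagine synthetase gene, had -0.76 (adjusted p = 0.0344), and it no longer passed the test without any 1 of the 8 knockout libraries, with adjusted p from 0.0841 to 0.757, or without any 1 of 4 control libraries, with adjusted p from 0.0505 to 0.0523.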

How the results depend on the processing

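The count of 11424 cytoplasmic calls stayed within 1.5 times under every alternative run, from 8037 with batch 5 added and no replicate block to 11858 with the 4 libraries alone and no replicate block. Without the replicate block it was 9341, and total and nuclear RNA gave 7076 and 7376. DESeq2 called 8337 genes, and the main fit with batch 5 left out called 11310. Leaving out 1 control, IGF2BP2 knockout or IGF2BP3 knockout library gave 9409 to 11586 cytoplasmic, 3848 to 10756 total and 6164 to 10046 nuclear calls, and leaving out the IGF2BP1 knockout library whose values recur gave 10796 and 10113. At 2-fold or more, limma on log2(FPKM + 1) and log2(FPKM + 0.1) called 158 and 724 genes in cytoplasmic RNA. In total RNA it called 188 and 778 genes, and in nuclear RNA 218 and 858. The added constant shrinks differences of genes with a low FPKM. IGF2BP2 is such a gene, with 0.382 and 0.407 FPKM at 77.9 and 82.7 CPM in the IGF2BP3 knockout. The interaction count of 314 was 79 with DESeq2, 16 without the replicate block, 1081 with the 8 libraries and no replicate block, and 41 to 408 with 1 such library left out. For IGF2 and MT-ND5 the direction turned with batch 5 alone, to -0.26 (adjusted p = 0.121) and 0.11 (adjusted p = 0.32); the cause was not tested. HK2, COL1A1, HOXC12, MT-ND1 and MT-CYB were not called with batch 5 alone, and IGF2BP1 was (0.31, adjusted p = 0.00513). Genes with no count in a knockout have only a lower bound of the fold.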

Other observations

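Some further markers of kidney and nervous tissue differed, the neuronal ones named here and LHX1 at low levels. ASTN1, a neuronal adhesion protein, stood at 5.04 and 4.44 CPM in the IGF2BP3 knockout and 0.245 and 0.184 CPM in the IGF2BP2 knockout (log2 fold change 4.38, SE 0.32, adjusted p = 1.15e-13). SNAP25, a protein of synaptic vesicle fusion, was at 3.66 and 4.06 CPM against 1.31 and 1.43 CPM, whereas MAP2, a protein of dendritic microtubules, was at 0.990 and 1.38 CPM against 2.41 and 2.49 CPM. Of 10 neuronal markers tested, 5 were higher and 3 lower, where 31.3% of all genes were higher and 31.5% lower. With batch 5 in place of batches 3 and 4, 2 were called higher and 5 lower, and the median turned from 0.18 to -0.22. LHX1, a transcription factor of kidney development, was at 7.19 and 7.04 CPM against 2.33 and 1.84 CPM (log2 fold change 1.72, SE 0.16). SALL1 and SIX2, transcription factors of nephron progenitors, went the other way, with log2 fold changes of -0.91 (SE 0.06) and -0.73 (SE 0.07). Of 5 fibroblast markers tested 3 were higher and 2 lower, beside the same shares of all genes. COL3A1 was among the lower, at 1.25 and 1.38 CPM against 4.08 and 4.69 CPM. With batch 5 in place of batches 3 and 4, 0 fibroblast markers were called higher and 2 lower. Their median turned from 0.58 to -1.21. These genes were chosen after their values were seen. On the 6 chromosomes singled out above lie 4 of the 15 kidney and HEK293 markers tested, 4 of the 10 neuronal and 2 of the 5 fibroblast markers.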
